A study of Mus musculus with 23 samples.

Results

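The Serpina cluster of the mouse is a run of serine protease inhibitor genes on chromosome 12. Its members were picked by symbol from the deposited liver table, without regard to their values: Serpina1a, Serpina1b, Serpina1c, Serpina1d, Serpina3c, Serpina3k, Serpina3m, Serpina3n, Serpina6 and Serpina12. They are 10 of 24475 listed genes, and all 10 passed the filter on low values that left 11939 genes for testing. The members lie between positions 103646630 and 104414334 (GRCm38.p6), a span of 767.7 kb that holds 25 listed Serpina genes.

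Serpins trap their target protease in an irreversible complex through an exposed reactive loop. Hepatocytes secrete many of them into plasma: the Serpina1 genes encode copies of alpha-1-antitrypsin, the main plasma inhibitor of neutrophil elastase, and the Serpina3 genes are the mouse expansion of antichymotrypsin, an acute phase inhibitor. Some family members no longer act mainly as inhibitors, such as Serpina6, the plasma carrier of glucocorticoids.

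Liver RNA was sequenced from male C57BL/6J mice kept for 4 months on regular chow or on a high-fat diet (HFD). For the last 3 weeks all of them were given 1 of 2 antibodies, at 10 mg/kg, so no group was free of antibody. REGN1193 blocks the glucagon receptor (GCGR), the receptor through which glucagon acts on hepatocytes. REGN496, the other antibody in the labels, was taken as the isotype control by elimination. The groups were control antibody on chow (libraries 1 to 5), GCGR antibody on chow (6 to 11), control antibody on HFD (12 to 17) and GCGR antibody on HFD (18 to 23). Values are RPKM, read numbers scaled to gene length and library size, which allow levels of different genes to be compared per length. Nothing in the labels ties each library to its own animal, and p-values reflect only sample-to-sample spread, which may be technical.

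Summed RPKM per library lay between 594025.6 and 692294.6, and relative depth, read from the steps between low values, between 0.865 and 1.15 of a typical library. Hepatocyte markers were abundant, with 9 of 10 found and sums of 50368.7 to 68620.2 RPKM in every library. Of 6 pancreas markers, 4 were at 0 in all libraries. In whole liver, fewer cells of a type and less RNA per cell cannot be told apart. Libraries 19 and 20, both GCGR antibody on HFD, stood apart in this family: they held the lowest values of their group for 7 of the 10 members, and results that rest on them are given with and without them. The pair was chosen after these values were seen.

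The copies share much of their sequence, which bears on every value because the reads were 33 bases long. The RefSeq promoters (GRCm38.p6, minus strand) show how alike the Serpina1 copies are upstream of their start sites. The stretches below were cut around the letters GTTAAT, marked in capitals, so their shared place in the stretch is by construction. GTTAAT begins at -21 from the annotated start in Serpina1a, -26 in Serpina1b, -27 in Serpina1c, -16 in Serpina1d and -78 in Serpina1e. All stretches end at or before the last base upstream of the start. They are shown because these copies differed in their response to diet.
Serpina1a, chr12:103863625-103863700: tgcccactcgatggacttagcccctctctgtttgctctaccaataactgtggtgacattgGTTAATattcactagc
Serpina1b, chr12:103738200-103738275: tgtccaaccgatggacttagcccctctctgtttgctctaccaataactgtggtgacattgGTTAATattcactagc
Serpina1c, chr12:103904962-103905037: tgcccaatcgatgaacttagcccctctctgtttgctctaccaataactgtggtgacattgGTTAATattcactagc
Serpina1d, chr12:103773634-103773709: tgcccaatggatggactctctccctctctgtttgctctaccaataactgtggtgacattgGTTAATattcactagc
Serpina1e, chr12:103956960-103957035: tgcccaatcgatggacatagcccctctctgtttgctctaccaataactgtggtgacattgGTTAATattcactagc

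Serpina1e is the fifth copy and not one of the 10 members. Any pair of these stretches differed at 2 to 7 of 76 bases, and Serpina1e differed from Serpina1a and from Serpina1c at 2. GTTAAT, searched on both strands, occurred in 6 of the 8 promoters of members and Serpina1e that the table holds, and in 7.10% of all 32851 promoters of that length. The 6 were those of the 5 Serpina1 copies and of Serpina3c. TTGCNNAA, the core of a C/EBP site, occurred in 5 of 8 and in 10.80% of all. The 5 were those of Serpina12, Serpina1a, Serpina1b, Serpina1d and Serpina1e. Since the Serpina1 promoters are near copies, they are not separate cases, and these counts show no enrichment across the family. TTCNNNGAA, the letters of a STAT site, occurred in 0 of 8 and in 8.30% of all. Matches of different motifs overlapped in 0 of the 8, and a match describes the sequence only. Promoters of Serpina3k, Serpina3m and Serpina6 were not used here.

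A second pair shows the same closeness among antichymotrypsin copies whose levels were far apart, Serpina3c on the minus and Serpina3n on the plus strand. It is printed without capitals, since none of the searched letters fall in it.
Serpina3c, chr12:104153932-104154011: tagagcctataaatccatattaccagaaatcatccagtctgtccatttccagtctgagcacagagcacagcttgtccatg
Serpina3n, chr12:104406566-104406645: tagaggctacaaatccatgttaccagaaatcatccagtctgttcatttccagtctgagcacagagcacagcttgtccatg

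These stretches differed at 4 of 80 bases. Over all libraries Serpina3n averaged 268.2 RPKM and Serpina3c 6.17.

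How far reads can be assigned to 1 copy was counted from the annotated transcripts (GENCODE M21), cut into every 33-base window. Serpina1c had the fewest windows found in no other gene, 18.8%, and shared 76.5% with Serpina1a. The share was 35.6% for Serpina1a, 36.9% for Serpina1d, 48.2% for Serpina1e and 57.2% for Serpina1b. Serpina3m had 67.1%, Serpina3k 77.4%, Serpina3n 80.3% and Serpina3c 84.9%, whereas all windows of Serpina6 and Serpina12 were found in no other gene. How the authors' counting divided shared reads is not given in the sources used here, so values of single Serpina1 copies are uncertain and their sums are given beside them.

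**Figure D1:**
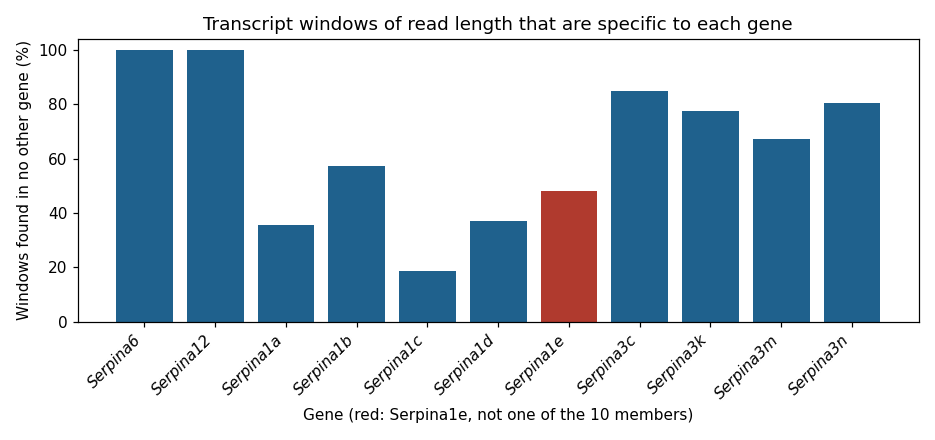
Bars give, for each gene, the percentage of 33-base transcript windows found in no other annotated gene. Serpina1c is lowest at 18.8%, and Serpina6 and Serpina12 reach the top of the scale because no window of theirs is shared.

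In level, the alpha-1-antitrypsin copies and Serpina3k were among the most abundant transcripts of the liver. Averaged over the 23 libraries, Serpina1c had 4792.9 RPKM and ranked 22nd of 24475 genes, Serpina3k had 4254.4 and ranked 25th, Serpina1b had 3429.0, Serpina1a 3121.0 and Serpina1d 2207.9. Serpina3n followed with 268.2 RPKM, Serpina3m with 167.4, Serpina6 with 156.2, Serpina12 with 33.15 and Serpina3c with 6.17. Within the chow control libraries Serpina1c, at 4502.6 to 5706.5 RPKM, and Serpina3k, at 4684.3 to 5579.9, overlapped, as did Serpina1a and Serpina1b, and Serpina3m and Serpina3n. Together the 10 members made up 3.33% ± 0.12 (SD, n = 5) of all RPKM in control antibody on chow, 3.03% ± 0.14 (n = 6) with GCGR antibody on chow, 2.69% ± 0.20 (n = 6) in control antibody on HFD and 2.64% ± 0.61 (n = 6) with GCGR antibody on HFD.

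**Figure D2:**
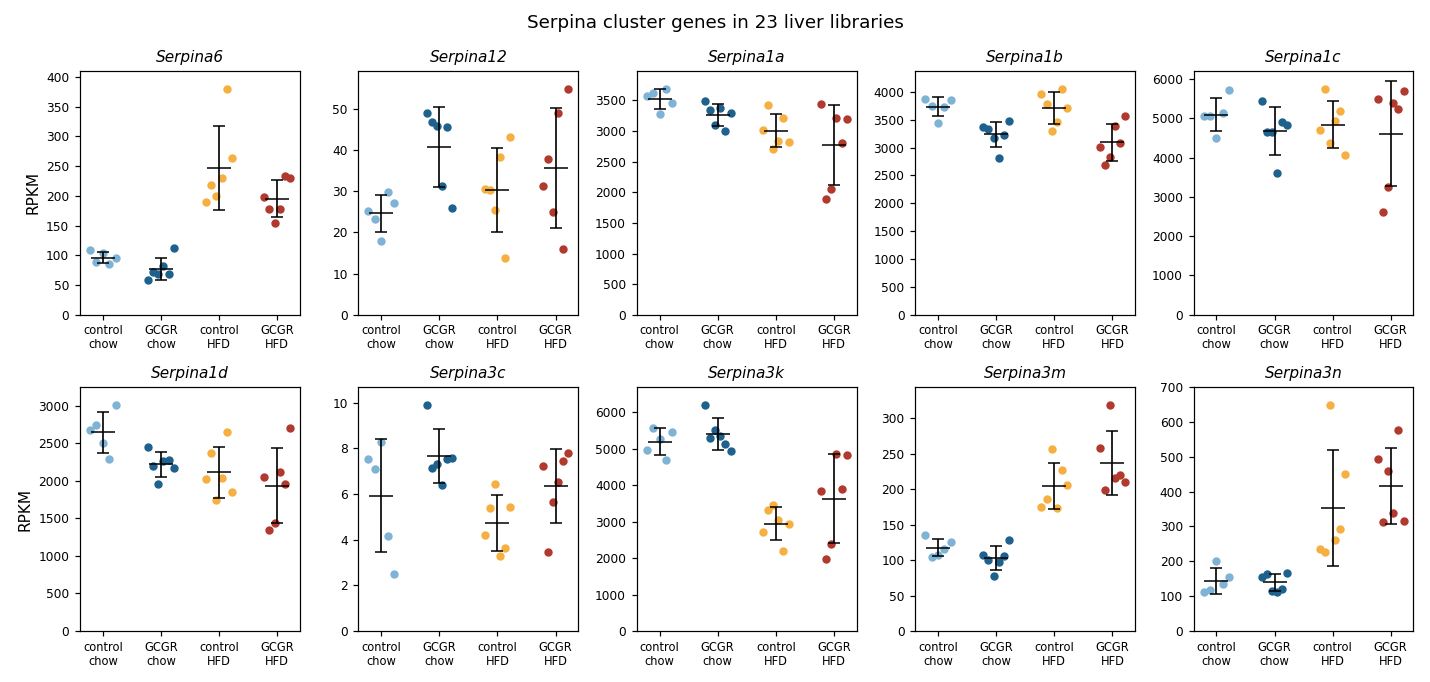
RPKM of the 10 members in 23 libraries, by antibody and diet. Each point is a library, the wide bar is the group mean and the whiskers are 1 SD, with n = 5 for control antibody on chow and n = 6 for the others. In Serpina6, Serpina3m and Serpina3n every HFD point lies above the chow points of the same antibody, and in Serpina3k every HFD point lies below them.

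Diet separated the family. Under the control antibody Serpina6, Serpina3n and Serpina3m rose on HFD, Serpina3k fell, and the other 6 members did not pass limma's test at an adjusted p under 0.05. Of the 11939 genes tested, 11.6% were called higher and 18.3% lower in this comparison, so with 3 of 10 members higher and 1 of 10 lower the share of higher calls was above the background and that of lower calls below it. In the same 4 members the libraries of the diets did not overlap, which held for 5.49% of tested genes in the higher and 10.4% in the lower direction. The members' median log2 fold change was -0.05, beside -0.03 over all tested genes. Under the GCGR antibody the libraries were different ones, but the fit shared 1 estimate of the spread over all 4 groups. There the calls were again 3 higher and 1 lower, for the genes named above. The background there was 13.2% higher and 16.6% lower. Again these 4 members did not overlap between diets, beside 5.15% of tested genes higher and 5.1% lower. The medians were -0.15 for the members and -0.02 over all tested genes.

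Serpina6, corticosteroid-binding globulin, had the smallest adjusted p of the members under control antibody. In control antibody on chow its values were 108.4, 89.21, 103.3, 84.76 and 94.68 RPKM in libraries 1 to 5. On HFD with the same antibody they ran from 189.6 through a median of 223.7 to 380.0 in library 16. No HFD library came down to a chow library. This rise was 2.49-fold, or 1.32 ± 0.16 (SE) on the log2 scale (limma, adjusted p 5.56e-06). With GCGR antibody the lowest, median and highest values were 58.39, 70.11 and 111.7 RPKM among chow libraries and 154.7, 188.0 and 234.0 among HFD libraries, again without overlap. The log2 fold change was 1.35 ± 0.15 (limma, adjusted p 1.37e-06). Since every read window of Serpina6 is its own, these values do not depend on how copies were told apart.

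Serpina3n, an inhibitor that rises in inflammation, was 111.4, 118.0, 202.1, 133.8 and 156.4 RPKM in the chow control libraries. On HFD it was 225.7 at its lowest, 277.0 at its median and 648.3 at its highest, in library 14. The groups did not overlap, but the HFD control libraries spread widely, with libraries 14 and 17 well above the other 4. The log2 fold change was 1.20 ± 0.24 (limma, adjusted p 8.33e-04). With GCGR antibody it went from 112.4, 138.6 and 166.5 RPKM (lowest, median and highest) on chow to 311.5, 398.5 and 576.7 on HFD, a log2 fold change of 1.55 ± 0.23 (limma, adjusted p 3.06e-05).

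Serpina3m, a close relative of Serpina3k that shares 23.3% of its windows with it, moved the opposite way from that gene. Its chow control values were 135.2, 105, 107.3, 115.7 and 125.4 RPKM, and on HFD the lowest was 173.4, the median 196.1 and the highest 256.3. Every HFD library exceeded every chow library. The log2 fold change was 0.78 ± 0.13 (limma, adjusted p 1.52e-04). With GCGR antibody the values were 77.02, 102.9 and 128.4 RPKM for chow, against 198.5, 217.8 and 318.5 for HFD, a log2 fold change of 1.20 ± 0.12 (limma, adjusted p 3.74e-07).

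Serpina3k, the most abundant Serpina3 gene in each of these libraries, was 4952.6, 5579.9, 5276.5, 4684.3 and 5452.6 RPKM in the chow control libraries. On HFD it was 2201.9 at its lowest, 3002.1 at its median and 3463.6 at its highest. All 6 HFD libraries lay below the lowest chow library. The level fell to 0.564 of that on chow, a log2 fold change of -0.83 ± 0.18 (limma, adjusted p 0.00174). With GCGR antibody the values were 4938.3, 5319.5 and 6197.7 RPKM for chow, against 1981.8, 3875.2 and 4850.9 for HFD, and the groups again did not overlap. Here the log2 fold change was -0.65 ± 0.17 (limma, adjusted p 0.00673). Libraries 19 and 20, at 1981.8 and 2387.6 RPKM, were far below the other 4, and without them it was -0.31 (limma, adjusted p 0.0356).

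Because Serpina3k is so abundant, its fall changed the makeup of the Serpina3 transcripts. It was 95.0% ± 0.6 (SD, n = 5) of the summed Serpina3 RPKM in control antibody on chow and 83.9% ± 4.1 (n = 6) on HFD. Serpina3n went from 2.64% ± 0.63 to 9.82% ± 3.40, and Serpina3m from 2.2% ± 0.3 to 5.89% ± 1.24. The sum itself was 5463.3 ± 371.1 RPKM on chow and 3519.2 ± 560.5 on HFD. These sums carry no test.

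Among the alpha-1-antitrypsin members no diet call was made. Serpina1d, at 2290.6, 2669.6 and 3005.8 RPKM (lowest, median and highest) in the chow controls and 1741.4, 2029.1 and 2654.1 on HFD, overlapped between diets and had a log2 fold change of -0.33 ± 0.14 (limma, adjusted p 0.0786). Serpina1a went from 3520.9 ± 162.4 (SD, n = 5) to 3001.6 ± 271.2 RPKM (n = 6), with overlap and a log2 fold change of -0.23 ± 0.12 (limma, adjusted p 0.156). When libraries 19 and 20 were left out of the common fit, both passed, with adjusted p of 0.0177 for Serpina1d and 0.0119 for Serpina1a at the same fold changes, since only the estimate of the spread had changed. Serpina1d also passed when library 16, 19 or 23 was left out alone, with adjusted p of 0.0395 to 0.0454. Serpina1b was 3729.1 ± 171.0 and 3707.2 ± 290.4 RPKM, and Serpina1c 5091.9 ± 427.0 and 4835.7 ± 599.5, differences smaller than their SDs. Under GCGR antibody the 4 log2 fold changes lay between -0.27 for Serpina1a and -0.07 for Serpina1b, and none passed with all libraries. Serpina1a passed without library 18 or 23 (adjusted p 0.0290 and 0.0493) and Serpina1d without library 23 (0.0430). Without libraries 19 and 20 the log2 fold changes were -0.05 for Serpina1a and -0.02 for Serpina1d (limma, adjusted p 0.686 and 0.935).

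Serpina1e, the copy outside the member list, behaved differently from the other 4. In the chow controls it was the most abundant copy, at 6886.9, 9570.9, 7575.2, 6105.9 and 6709.2 RPKM. On HFD with control antibody it was 748.1 at its lowest, 1510.9 at its median and 2428.2 at its highest, far below every chow library. The log2 fold change was -2.38 ± 0.81 (limma, adjusted p 0.0309), a call lost in 6 of 34 alternative analyses: with no filter on low values and without library 2, 3, 5, 14 or 16, with adjusted p of 0.0502 to 0.0606. With GCGR antibody the values were 5755.5, 7410.3 and 9287.3 RPKM for chow, against 60.45, 1627.3 and 5743.2 for HFD, a log2 fold change of -3.12 ± 0.77 (limma, adjusted p 0.00443). Libraries 19 and 20 had 60.45 and 102.5 RPKM there while libraries 21 and 23 had 4068.9 and 5743.2, and without the low pair the log2 fold change was -1.42 (adjusted p 0.00371).

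The sum of Serpina1a to Serpina1e, which depends less on how reads were divided among these copies, was 22353.1 ± 1504.9 RPKM (SD, n = 5) in control antibody on chow and 15162.6 ± 1581.6 (n = 6) on HFD. Without Serpina1e the sums were 14983.4 ± 830.1 and 13656.2 ± 1332.5, a smaller gap between the diets. Its share of the total was 32.8% ± 4.1 on chow and 9.84% ± 3.31 on HFD. With GCGR antibody the shares were 35.7% ± 4.5 and 12.2% ± 11.04, the latter spanning 0.704% in library 19 to 27.5% in library 23. Serpina1e also has 48.2% of its windows to itself, more than Serpina1a, Serpina1c or Serpina1d.

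**Figure D3:**
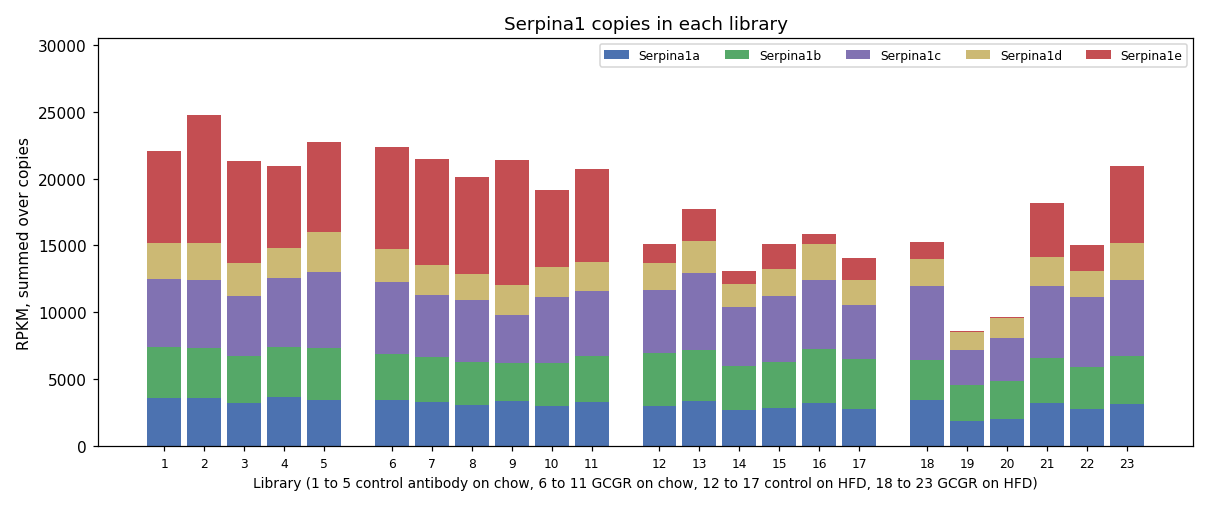
Stacked RPKM of the 5 Serpina1 copies in each of the 23 libraries, in 4 blocks by antibody and diet. The Serpina1e layer is widest on chow and thins on HFD, to 60.45 RPKM in library 19 and 102.5 in library 20, whose other copies are also the lowest of the GCGR HFD libraries.

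Hsd3b5, a male-specific liver steroid enzyme that depends on the pulsed growth hormone of males, had 0.8148 and 0.5002 RPKM in libraries 19 and 20, and 116.8 and 137.9 in libraries 21 and 23. The extremes of Serpina1e and Hsd3b5 in this group thus fell in the same libraries. Hsd3b5 was picked after its values were seen, and the list it comes from, given next, did not all follow it. Within this group Slco1a1 was also lowest in libraries 19 and 20 (6.739 and 7.213 RPKM), but Elovl3 was highest in library 20 (33.59). Of 23 tested genes of a list of growth hormone signalling and sex-biased liver genes, 3 were higher and 11 lower on HFD under control antibody (11.6% and 18.3% of all tested genes), and 3 and 12 under GCGR antibody (13.2% and 16.6%). Cyp2b9, a P450, had the smallest p among the higher genes in both, with log2 fold changes of 6.11 ± 0.64 and 5.96 ± 0.61 (limma, adjusted p 6.77e-07 and 4.16e-07). The lower genes of smallest p were Cyp3a44 at -2.05 ± 0.12 and Ugt2b38 at -2.08 ± 0.16 (limma, adjusted p 9.14e-11 and 8.30e-09). For the antibody Mup20, a urinary pheromone carrier, was the 1 called gene on chow, at 1.16 ± 0.24, and on HFD 3 were higher, led by Mup20 at 1.38 ± 0.23, and 2 lower, led by Elovl3 at -1.89 ± 0.35 (limma, adjusted p 0.0139, 4.34e-04 and 0.00133). The part of this list in the Serpina1e result was not tested.

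Serpina12, vaspin, an inhibitor also made by fat tissue, and Serpina3c, the least abundant member, did not pass in either diet comparison. Serpina12 was 17.94 to 29.86 RPKM in the chow controls and 13.86 to 43.06 on HFD, with a log2 fold change of 0.23 ± 0.27, and -0.26 ± 0.26 under GCGR antibody (limma, adjusted p 0.564 and 0.474). Serpina3c was 2.51 to 8.293 RPKM in the chow controls and 3.294 to 6.456 on HFD, a log2 fold change of -0.21 ± 0.21 (limma, adjusted p 0.483). Adipose markers, 6 of 6 found, summed to 4.375 to 6.558 RPKM in the chow controls and 8.81 to 77.31 on HFD. Most of that rise was Cfd, called higher in limma, at 0.7018 to 2.361 RPKM in the chow controls and 4.4 to 74.55 on HFD. Adrb3 was called lower, and Adipoq and Lep were at 0 in all HFD control libraries. Red cell markers, 5 of 5 found, summed to 67.28 to 193.1 and 57.53 to 1522.3 RPKM. The part of either in the diet results was not tested. Hepatocyte marker sums were 52375.2 to 66381.0 RPKM in the chow controls and 57395.4 to 68620.2 on HFD, which overlap, but 6 of the 9 tested markers were called in limma. Asgr1 and Ttr were higher, and Cps1, Fgb, Apob and Hnf4a lower. Under GCGR antibody 3 were called, Asgr1 higher and Fgb and Cps1 lower. Their part in the members' results was not tested.

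Along the chromosome, Serpina3k, Serpina3m and Serpina3n are consecutive among the listed genes, with Serpina3k lower on HFD and the other pair higher. Serpina1e, lower on HFD, follows Serpina1c, which did not pass. Of 16 further Serpina genes, 10 passed the filter, 2 were called higher and 2 lower under control antibody, and 2 and 3 under GCGR antibody. Serpina4-ps1, a transcribed pseudogene, was 19.09 to 148.4 RPKM in the chow controls and 1.752 to 24.13 on HFD, with a log2 fold change of -2.76 ± 0.64 (limma, adjusted p 0.003) that was -3.30 ± 0.61 under GCGR antibody. Serpina3g rose by a log2 fold change of 0.65 ± 0.20 (adjusted p 0.0207) and 0.56 ± 0.20 (limma, adjusted p 0.0353), calls lost in 4 and 11 of 34 alternatives, and was 0.35 under GCGR antibody without libraries 19 and 20 (adjusted p 0.208). Serpina11 fell under GCGR antibody, by a log2 fold change of -0.27 ± 0.10 (limma, adjusted p 0.0436). Serpina7, thyroxine-binding globulin, a hormone carrier like Serpina6 but on chromosome X, was 12.29 to 17.19 RPKM in the chow controls and 27.68 to 98.97 on HFD, a rise of 1.89 ± 0.26 on the log2 scale (limma, adjusted p 2.08e-05). Under GCGR antibody it was 18.01 to 35.49 RPKM on chow and 27.38 to 65.73 on HFD, with overlap and a log2 fold change of 0.92 ± 0.25 (limma, adjusted p 0.00705).

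**Figure D4:**
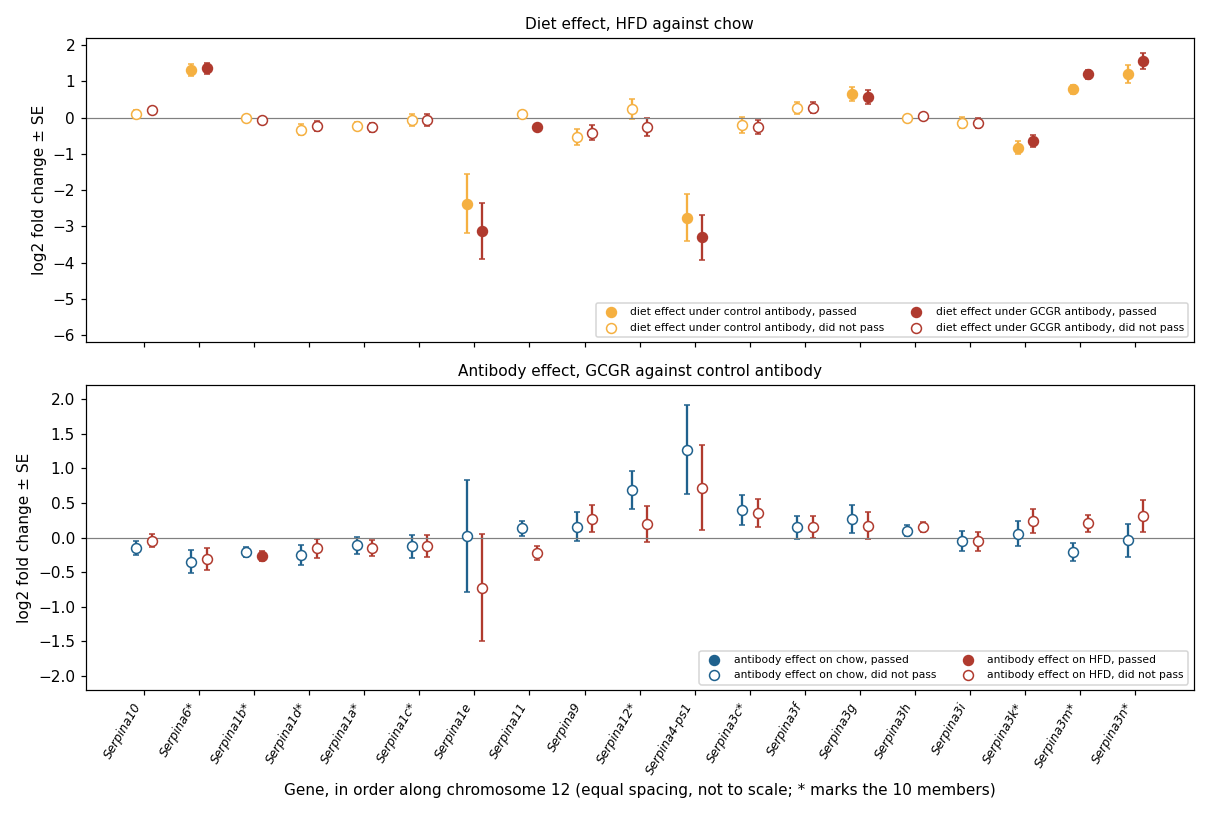
Log2 fold change ± SE of the 19 tested Serpina genes of chromosome 12, in gene order, for the diet effect (top) and the antibody effect (bottom). Filled points passed limma's test; the diet effects of Serpina6, Serpina3m and Serpina3n are filled and above 0, and those of Serpina3k, Serpina1e and Serpina4-ps1 filled and below 0.

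Blocking the glucagon receptor was compared next, to ask what the antibody did to the family on each diet. On chow 0 of the 10 members passed limma's test after adjustment, where 0.394% of all tested genes were called higher and 0.553% lower. The exact rank-sum test could not decide here. Serpina7, whose libraries did not overlap between antibodies on chow, did not pass it either, so no gene could. At an unadjusted p under 0.05 there were 3, Serpina1b, Serpina6 and Serpina12. Serpina12 was 25.16, 23.17, 17.94, 29.86 and 27.11 RPKM with control antibody and 25.88, 45.69 and 49.00 (lowest, median and highest) with GCGR antibody. Most GCGR libraries were above all controls, but library 11 lay among them, and the log2 fold change of 0.68 ± 0.27 reached an adjusted p of 0.358 (limma). Serpina6 was 58.39 to 111.7 RPKM against 84.76 to 108.4 in the controls, a log2 fold change of -0.35 ± 0.16 (limma, adjusted p 0.442). The members' median was -0.12, beside 0.03 over all tested genes.

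On HFD 1 member passed, Serpina1b, in the lower direction, where 2.12% of tested genes were called lower and 5.33% higher. Its values were 3289.3 at the lowest, 3742.5 at the median and 4053.7 RPKM at the highest with control antibody, and 2682.0, 3048.0 and 3564.9 with GCGR antibody, so the groups overlapped. The level was 0.833 of the control, a log2 fold change of -0.26 ± 0.07 (limma, adjusted p 0.0331). On chow the same gene had -0.21 ± 0.08 (limma, adjusted p 0.333), with GCGR libraries at 2817.7 to 3480.3 RPKM and control libraries at 3445.3 to 3864.5. The call on HFD was lost in 11 of 34 alternative analyses: the exact rank-sum test gave an adjusted p of 0.161, and leaving out libraries 19 and 20 gave -0.18 with 0.111. It was also lost when any of libraries 12, 13, 16, 17, 18, 20 or 22 was left out alone, with adjusted p of 0.0504 to 0.0832. Of 9 tested hepatocyte markers 1 was called for the antibody on HFD, Alb, also lower (limma). Its part in the Serpina1b result was not tested.

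Serpina3k showed the reverse dependence. With all libraries it had a log2 fold change of 0.24 ± 0.17 for GCGR against control antibody on HFD and did not pass (limma, adjusted p 0.405). Without libraries 19 and 20 it was 0.57 with an adjusted p of 0.00168, and with libraries weighted by their fit 0.48 with 0.0176. In the remaining GCGR libraries, 18, 21, 22 and 23, it was 3841.9, 4850.9, 3908.6 and 4831.8 RPKM, all above the highest control library at 3463.6. Libraries 19 and 20 were set aside after the data were seen and held the group's 2 lowest Serpina3k values. The rise without them, its p and the separation of the remaining libraries follow in part from that choice. Serpina1a, Serpina1c and Serpina1d turned from negative to positive log2 fold changes of 0.08, 0.18 and 0.07 when that pair was left out, and none of them passed either way.

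The remaining members did not pass on HFD. Serpina6 had a log2 fold change of -0.31 ± 0.15 (limma, adjusted p 0.220), Serpina3n 0.31 ± 0.23 (0.408), Serpina3m 0.21 ± 0.12 (0.299), Serpina3c 0.35 ± 0.20 (0.297) and Serpina12 0.20 ± 0.26 (0.676). The members' median was 0.04, beside 0.05 over all tested genes. Whether the antibody acted differently on the diets was tested directly, and 0 of the 10 passed limma's test, where 0.126% of tested genes were called higher and 0.0754% lower. At an unadjusted p under 0.05 there was 1, Serpina3m, with a difference of 0.42 ± 0.18 (limma, adjusted p 0.444).

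Serpina3n varied within groups together with other acute phase genes. Deviations from the group mean of log2(RPKM + 1) were compared over the 23 libraries with 8 such genes, with permutation p from 100000 shuffles within groups, two-sided and adjusted over the 8. With Lcn2, the siderophore-binding lipocalin induced in inflamed liver, Pearson's r was 0.903 (adjusted permutation p 1.60e-04) and Spearman's rho 0.854 (8.00e-05). Leaving out libraries 3 and 14, the farthest in Serpina3n from the median, gave 0.862. With haptoglobin (Hp) r was 0.840 (adjusted permutation p 3.20e-04) and rho 0.706 (0.00216), and 0.744 without the same pair. Within single groups of 6 libraries the r with Lcn2 was 0.985 in control antibody on HFD, 0.850 with GCGR antibody on HFD and 0.597 with GCGR antibody on chow, while the group of 5 was too small.

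**Figure D5:**
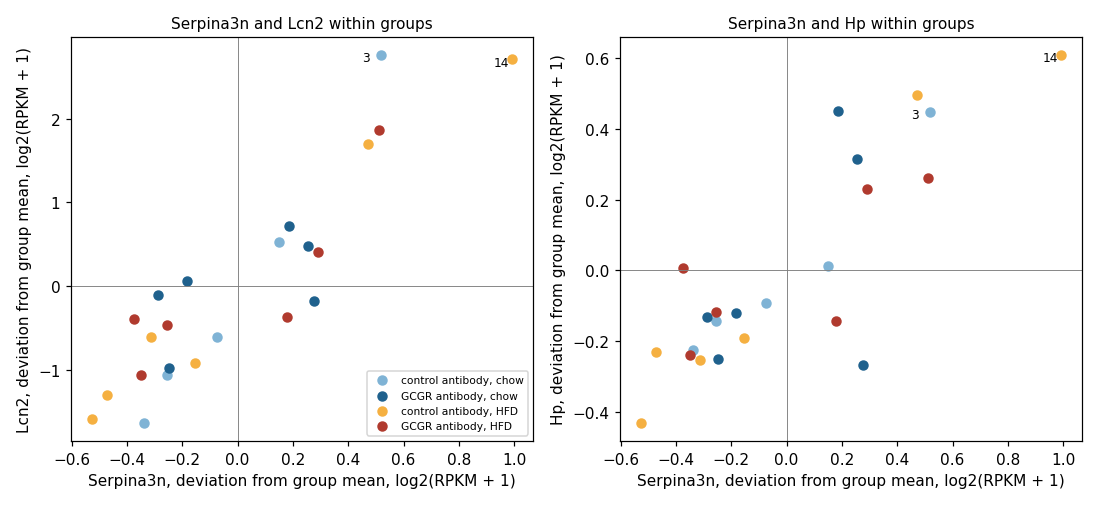
Each point is a library, placed by its deviation from the group mean in Serpina3n (x axis) and in Lcn2 or Hp (y axis), both in log2(RPKM + 1), coloured by group. Points run from low left to high right (r of 0.903 and 0.840), with libraries 3 and 14 at the upper end.

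The other relations were weaker. For Orm1 r was 0.775 and rho 0.668, and for Orm2 0.712 and 0.611, with adjusted permutation p of 3.80e-04 and 3.73e-04 for r and 0.00274 for both rho. The r of these fell to 0.629 and 0.606 without libraries 3 and 14. For the serum amyloids the r was 0.626 (Saa3), 0.617 (Saa2) and 0.593 (Saa1), with adjusted permutation p of 0.00557, 0.00277 and 0.00331, and rho 0.577, 0.603 and 0.560 (0.0107, 0.00773 and 0.0107). Without that pair they were 0.360, 0.504 and 0.469, with permutation p of 0.169, 0.0456 and 0.0588, not adjusted over the 8. The relation with Saa3 and Saa1 thus rests on those libraries, and that with Saa2 was near the limit even before adjustment. Fibrinogen beta (Fgb) had r 0.497 and rho 0.515 (adjusted permutation p 0.0230 and 0.0143) and 0.297 without the pair, where it too no longer held (permutation p 0.233). Neutrophil markers, 8 of 8 found, summed to 0.8635 to 3.84 RPKM in the chow controls and 1.372 to 7.201 in the HFD controls, and macrophage markers, 11 of 11 found, to 64.89 to 129.3 and 70.95 to 125.7. With GCGR antibody neutrophil markers summed to 1.244 to 7.403 RPKM on chow and 2.238 to 18.73 on HFD. Macrophage markers summed to 113.6 to 152.9 and 69.18 to 114.4, with Clec4f, Timd4, Vsig4 and Csf1r called lower on HFD and Ccr2 higher (limma). Stellate cell markers, 9 of 9 found, summed to 87.29 to 94.62 and 80.26 to 182.8, with Col1a1, Lum, Col3a1 and Dcn called higher. Libraries 19 and 20 had the lowest Clec4f of the GCGR HFD group, 9.228 and 15.07 RPKM, and the highest Col1a1, 8.087 and 12.19. The macrophage markers did not all go with Clec4f. Library 20 had the highest Adgre1, Cd5l, Csf1r, Cd68, Lyz2 and Ccr2 of that group, with Csf1r at 9.239 and Lyz2 at 33.33 RPKM. The part of these markers in the values of Serpina3n and the other members was not tested.

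By diet, acute phase genes were called in both directions. Under control antibody 5 of 29 tested genes were higher and 4 lower on HFD, beside 11.6% and 18.3% of all tested genes, and under GCGR antibody 11 were higher and 3 lower, beside 13.2% and 16.6%. Lcn2, listed among the higher genes in both, had log2 fold changes of 4.02 ± 0.75 and 5.30 ± 0.72 (limma, adjusted p 5.30e-04 and 1.30e-05). Fgb, a chain of the clotting protein fibrinogen, fell by a log2 fold change of -0.47 ± 0.12 under control antibody, and its partner chain Fga by -0.48 ± 0.12 under GCGR antibody (limma, adjusted p 0.00612 and 0.0053). For the antibody on HFD 4 of 29 were higher, led by ceruloplasmin (Cp) at 0.41 ± 0.08 (limma, adjusted p 0.00195). On chow 0 passed limma's test, and 7 had an unadjusted p under 0.05.

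Glucocorticoid-related genes were read beside Serpina6, whose product carries that hormone. Of 18 tested, 2 were higher and 1 lower on HFD under control antibody (11.6% and 18.3% of all tested genes), and 4 and 1 under GCGR antibody (13.2% and 16.6%). The circadian repressor Per1, a glucocorticoid target, rose by 0.93 ± 0.28 and 1.52 ± 0.27 on the log2 scale (limma, adjusted p 0.0156 and 2.19e-04). Srd5a1, a steroid reductase, fell by a log2 fold change of -0.78 ± 0.17 and -0.97 ± 0.16 (limma, adjusted p 0.00197 and 1.39e-04). For the antibody on HFD the bile acid and steroid reductase Akr1d1 alone of the list passed, at 0.57 ± 0.15 (limma, adjusted p 0.0181). On chow 0 passed limma's test, and 4 had an unadjusted p under 0.05.

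Among 13 tested serpins of other families, 2 were higher and 4 lower on HFD under control antibody, where 11.6% and 18.3% of all tested genes were, and under GCGR antibody 2 were higher and 1 lower, where 13.2% and 16.6% were. Serpinb8, an intracellular inhibitor, rose by 0.83 ± 0.13 and 0.91 ± 0.12 on the log2 scale (limma, adjusted p 8.44e-05 and 1.16e-05). Serpinb9, the granzyme B inhibitor, fell under control antibody by a log2 fold change of -0.47 ± 0.10 (limma, adjusted p 0.00128), and Serpine2, protease nexin 1, under GCGR antibody by -1.71 ± 0.31 (limma, adjusted p 2.66e-04). For the antibody on HFD 2 passed, both higher, led by Serpinb1a, an inhibitor of neutrophil elastase, at 1.34 ± 0.19 (limma, adjusted p 9.83e-05). Its values were 1.037 to 2.354 RPKM with control and 2.83 to 7.854 with GCGR antibody. On chow 0 of 13 passed limma's test, and 2 had an unadjusted p under 0.05.

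Proteases, folding genes and transcription factors are counted here beside the same shares of all tested genes, 11.6% higher and 18.3% lower on HFD under control antibody and 13.2% and 16.6% under GCGR antibody. Of 13 tested serine proteases 1 was higher on HFD under control antibody and 3 under GCGR antibody, led in both by Hgfac, the hepatocyte growth factor activator, at 0.41 ± 0.07 and 0.47 ± 0.07 (limma, adjusted p 4.28e-04 and 4.49e-05). For the antibody 0 passed limma's test on either diet, and 1 on chow and 0 on HFD had an unadjusted p under 0.05. Of 23 genes of folding and export in the endoplasmic reticulum, which secreted serpins pass through, 4 were higher and 1 lower on HFD under control antibody, led by the cargo receptor subunit Mcfd2 at 0.36 ± 0.08 (limma, adjusted p 0.00146). The glucosidase subunit Ganab was the lower gene there and the only called gene under GCGR antibody, at -0.21 ± 0.08 and -0.23 ± 0.07 (limma, adjusted p 0.0432 and 0.0247). Of 15 liver transcription factors 3 were higher and 2 lower on HFD under control antibody, led by Cebpa at 0.33 ± 0.10 and Hnf4a at -0.25 ± 0.09 (limma, adjusted p 0.0117 and 0.0302). Under GCGR antibody 5 were higher, led by Tef at 1.03 ± 0.22 (limma, adjusted p 0.00155). For the antibody 0 of the 15 passed limma's test, and 2 on each diet had an unadjusted p under 0.05. Among the 23 genes of folding and export it was 0, with 4 on each diet under that level.

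Genes with the most similar pattern to each called member were sought as the smallest root mean square difference of centred log2(RPKM + 1) over the 23 libraries. For Serpina3k it was C8a, a complement chain, at 0.158, beside the member's own SD of 0.473, then Crybg3 at 0.251. Serpina6 was nearest to Lect2, a hepatokine, at 0.239, then Hpgd at 0.324, with an SD of 0.740. Serpina3m, with an SD of 0.548, was nearest to Hpgd at 0.225 and Samd9l at 0.228, and Serpina3n, with 0.795, to Slc13a3 at 0.253 and Prg4 at 0.268. Serpina1b was nearest to Lap3 at 0.0963 and Haao at 0.0987, but its own SD was only 0.160. These are descriptions over libraries that share 4 groups.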

How the data were processed

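The authors deposited 1 table of RPKM values with 1 column for each of 23 libraries. Per the labels' protocols, strand-specific libraries were read for 33 cycles, and the submitters' processing notes name GRCm38, FastQC and bcl2fastq 2.17. An aligner or counting tool is not given in the sources used here. Groups were read from the sample titles. limma 3.58.1 (R 4.3.3) was run two-sided on log2(RPKM + 1), for genes with at least 0.5 RPKM in at least 5 libraries, with 4 group means, a mean-variance trend and Benjamini-Hochberg adjustment over 11939 genes. Fold changes are on that scale, which understates changes of low genes. The unit allows no count model, and counting intervals were not computed. Of the low values, 92.8% lay within 0.05 of a whole multiple of a step. Alternatives covered pseudocount, filter, scaling, trend, weights, the groups fitted, a rank-sum test and each library left out. The script was tested on simulated data. The members and lists were chosen with earlier results of these data known. All members were named, and from each gene list other than the cell type markers the called gene of smallest adjusted p in each direction, with 1 such gene not reported here. Marker genes were named after their values were seen.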

Additional observations from a re-analysis of the deposited data

Results flagged for a closer look

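Within groups of 5 or 6 libraries, 96 gene or sum by group sets were examined for a library far from the rest, by the gap to its nearest neighbour as a share of the group's range (Dixon's test). This found 8 sets, and chance gives about 1 in 20. Serpina3c was highest in library 6 among the GCGR chow libraries (share 0.6645), as was the sum of the Serpina3 genes (0.6251). Serpina4-ps1 had a lone high library in 3 groups: library 2 among the chow controls (0.7916), library 9 among the GCGR chow libraries (0.8619) and library 13 among the HFD controls (0.684). Serpina3g was highest in library 17 (0.6688) and Serpina3i in library 14 (0.6602) of the HFD controls, and Serpina9 in library 23 of the GCGR HFD libraries (0.7901).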

How the results depend on the processing

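Serpina3k, Serpina3m, Serpina3n and Serpina6 kept their diet direction and call in all 34 alternatives under both antibodies, with adjusted p up to 0.0272 under control and 0.0356 under GCGR antibody. No paired analysis was possible because each library has its own number. On HFD the antibody lowered 0 members with no filter, with the 2 groups fitted alone, by the rank-sum test and without libraries 19 and 20 (an alternative chosen after seeing the data), and 0 to 1 with single libraries left out. It raised 1, Serpina3k, with array weights and without that pair. Under control antibody the diet lowered 3 members with array weights, with the 2 groups alone and without that pair, 2 by the rank-sum test, and 1 to 2 with single libraries left out, and under GCGR antibody 1 to 3. The relation of Serpina3n with Fgb spanned 0.352 to 0.593 and did not pass without library 14 (0.352) or 19 (0.457). Reversals of uncalled log2 fold changes follow, and their cause was not tested. On chow Serpina1e went from 0.02 to -0.0262 (median-ratio scaling) and -0.0211 (trimmed mean) and spanned -0.0450 to 0.120 with single libraries left out, and Serpina3n -0.121 to 0.0924. On HFD array weights gave 0.0045 for Serpina1a, 0.0795 for Serpina1c and 0.392 for Serpina1e. Without libraries 19 and 20 these were 0.0777, 0.181 and 0.981, with 0.0666 for Serpina1d and -0.0321 for Serpina3g. With single libraries left out Serpina1c spanned -0.193 to 0.0318, Serpina1e -1.28 to 0.0328 and Serpina12 -0.0002 to 0.398. The difference for Serpina1e was 0.36 with array weights and 0.96 without that pair, and spanned -1.30 to 0.0118. For the diet, Serpina1b was 0.0349 under median-ratio and 0.0350 under trimmed-mean scaling and spanned -0.0392 to 0.0227 under control antibody, and was 0.0116 without that pair under GCGR antibody. Serpina1c there was 0.13 with array weights and 0.23 without that pair, and spanned -0.146 to 0.0798.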
